A study of Mus musculus with 6 samples.

Results

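The potassium channel genes of the mouse were read here as every row of the deposited exon count table whose symbol begins with Kcn and a further lower-case letter. There were 98 such rows among 24940, of which 94 stand for channel or auxiliary subunit genes and 4 for antisense or overlapping transcripts (Kcnq1ot1, Kcnd3os, Kcnmb4os1 and Kcnmb4os2). Their levels were measured by sequencing of polyadenylated RNA from wild-type primary hepatic stellate cells, which are liver pericytes that store vitamin A, isolated from female C57BL/6JBomTac mice and kept in culture for 2 days before treatment. The forskolin group (labelled Fsk) had 3 libraries, A, B and C, from cells given 5 µM forskolin for 3 h and collected 21 h after a medium change, 24 h after the start. The vehicle group (labelled Ctrl) had 3 libraries, also A, B and C, from cells given dimethyl sulfoxide, with the same medium change and collection time. Forskolin raises cyclic AMP by switching on adenylyl cyclase. The mice's age is not given, and neither is whether the libraries came from separate animals or cultures, so p-values reflect no more than the spread among these 6 libraries, which may be technical.

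Potassium channels let potassium ions leave the cell and hold the membrane potential negative, which in contractile cells keeps voltage-gated calcium channels closed. Inward rectifiers (Kcnj) and tandem pore channels (Kcnk) carry the resting current, voltage-gated channels (such as Kcna, Kcnd, Kcnh and Kcnq) open on depolarization, and a further family opens with internal calcium or sodium (Kcnma, Kcnn, Kcnt). In pericytes and vascular smooth muscle the best known member is the ATP-sensitive channel, made of the pore protein Kir6.1, encoded by Kcnj8, and the sulfonylurea receptor SUR2, encoded by Abcc9, and it is a known target of protein kinase A.

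Total counts per library were 10890193 to 12954310 with forskolin and 13001358 to 15090262.5 with vehicle. Every vehicle library was thus deeper than every forskolin library, though vehicle C only slightly deeper than forskolin B. Depth and treatment therefore go together and cannot be fully told apart. The cyclic AMP target genes Crem, Nr4a1 and Pde4d were higher with forskolin, with log2 fold changes of 2.001, 1.89 and 2.21. Of 10 stellate cell markers all were tested, and 5 were higher, Hgf among them (log2 fold change 1.02), and 4 lower, Des (-0.83) and Lum (-0.67) among them. Their summed level was 3842 to 3959 CPM with forskolin and 3897 to 4107 CPM with vehicle. Of 10 vascular smooth muscle markers 9 were tested, and 8 were lower and 0 higher (edgeR, adjusted p under 0.05), where 25.1% of all tested rows were lower. The log2 fold changes of the 8 ran from -0.13 for Smtn to -1.06 for Cnn1. The list summed to 1112 to 1302 CPM with forskolin and 1356 to 1413 CPM with vehicle. Of 10 sinusoidal endothelial markers 4 were lower and 1, Stab2, was higher, at 96.5 to 98.5 CPM with forskolin and 211 to 222 CPM with vehicle, while Clec4g, Pecam1, Cdh5 and Oit3 were too low to be tested. Most of that sum was Flt4, at 79.7 CPM with forskolin and 195 CPM with vehicle, and Stab1 was at 8.15 CPM with forskolin and 7.75 CPM with vehicle (adjusted p = 0.709). Of 10 macrophage markers 2 were tested, Cd68 and Csf1r, and both were higher. The list summed to 33.8 to 35.3 CPM with forskolin and 23.6 to 26.9 with vehicle, nearly all of it these 2, with Marco at 0. Of 10 hepatocyte markers 2 were tested, and 1, Trf, was higher. That list summed to 217 to 238 CPM with forskolin and 174 to 188 with vehicle. Nearly all of it was Trf, at 220 CPM with forskolin and 176 CPM with vehicle, with Serpina1a, Cyp3a11 and Fgb at 0. Of the remaining lists, 5 cholangiocyte markers summed to 392.1 to 427 CPM with forskolin and 137 to 151 with vehicle, of which Spp1 alone averaged 372 CPM with forskolin and 72.5 CPM with vehicle. Of this list Spp1 and Sox9 were higher and Krt19 was lower, with 35.1 CPM with forskolin and 71.3 CPM with vehicle. The 5 mesothelial markers, 1 of them lower, summed to 1.85 to 1.89 CPM with forskolin and 5.63 to 6.94 CPM with vehicle, and 6 neuronal or Schwann cell markers to 120.2 to 147 CPM with forskolin and 21.2 to 23.4 CPM with vehicle, nearly all of it Tubb3. The part that these cell markers play in the results below was not tested.

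Of the 98 rows, 28 had enough counts to be tested, and 21 of these passed (edgeR quasi-likelihood test, adjusted p under 0.05), 8 higher and 13 lower with forskolin. Over all 13357 tested rows 49.9% passed, 24.8% higher and 25.1% lower, and since about every other gene differed, being called says little by itself. At least 2-fold, 5 members were higher and 7 lower, 12 of 28 or 42.9%, where 6.62% of all tested rows passed that size, 2.9% higher and 3.71% lower. The members were low, with a median level of 4.37 CPM against 35.4 CPM over all tested rows, and of the 12 only Kcnj8 reached 35.4 CPM in any library. Kcnk10 and Kcnk3 reached the filter's level in every library of the forskolin group alone, Kcnj15 and Kcns3 in every library of the vehicle group alone, and Kcnk12 in neither, so these passed the filter through the libraries where they were high. Kcnk10, Kcnk3, Kcnk12 and Kcnj15 are among the 12. The 12 of 28 above, and the counts and the median that follow, therefore describe only the members that passed the filter. The shares of 42.9% and 6.62% also cover rows of unlike level. The median log2 fold change was -0.36 over the 28 members and 0.01 over all tested rows, with Kcnk10 taken at its lower bound or as fitted. Groups did not overlap in CPM for 20 of the 28, and for 57.3% of all tested rows. Subfamilies follow gene names, so the auxiliary subunit gene Kcnmb1 and the pH-sensitive Kcnu1 were counted with the calcium- or sodium-activated channel genes. By subfamily, 1 of 3 tested inward rectifiers was higher and 2 lower, and 4 of 6 tandem pore genes were higher and 2 lower. Among calcium- or sodium-activated channel genes 1 of 4 was higher and 2 lower, and 2 of 5 other auxiliary genes were higher and 2 lower. Of 9 voltage-gated genes 0 were higher and 4 lower, and the 1 tested antisense transcript was lower. In bulk RNA, fewer cells that express a gene and less of its RNA per cell cannot be told apart.

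**Figure D1:**
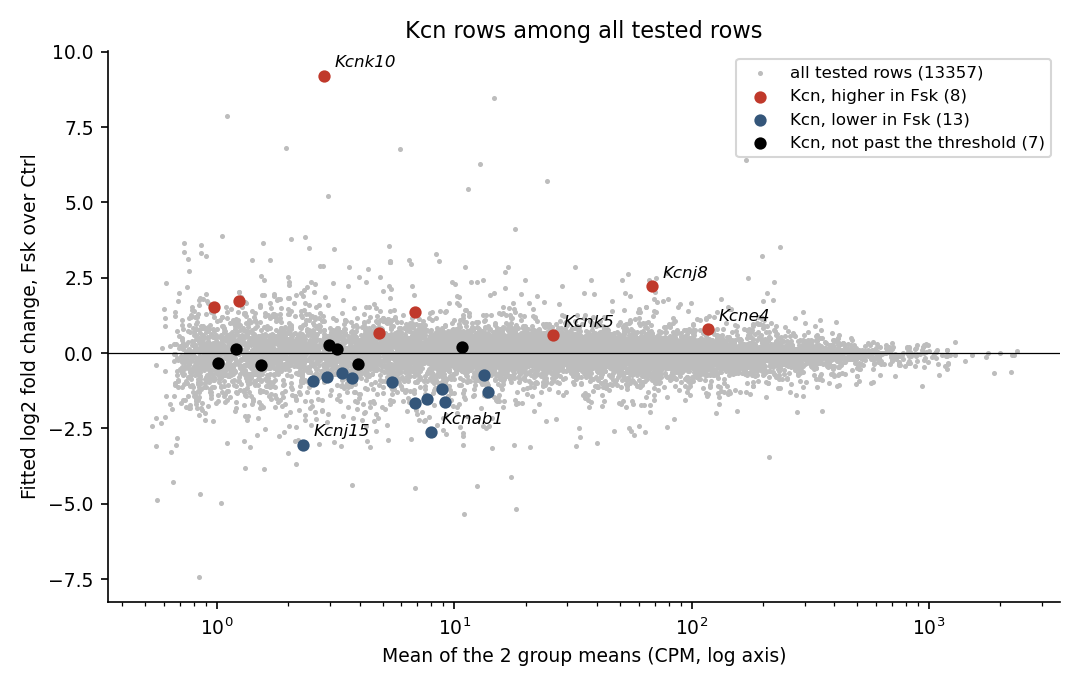
Fitted log2 fold change, forskolin (Fsk) over vehicle (Ctrl), against the mean level in CPM on a log axis, for 13357 tested rows in grey and the 28 tested Kcn rows in colour (8 higher, 13 lower, 7 not past the threshold). Kcnj8 and Kcne4 stand among well-expressed genes, most other members lie near or below 10 CPM, and the fitted value of Kcnk10 depends on the prior count, since it had 0 counts with vehicle.

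**Figure D2:**
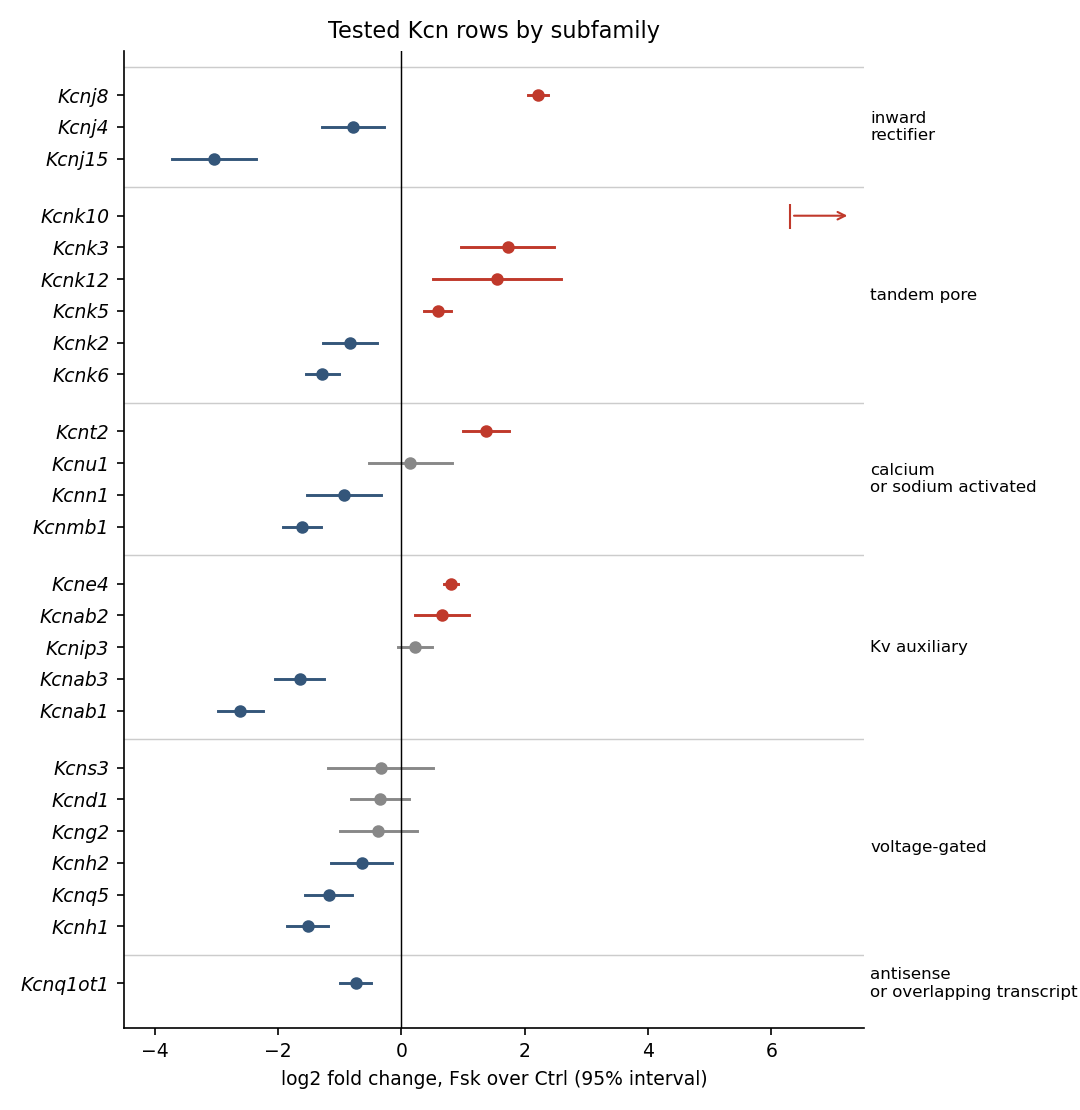
Log2 fold change, forskolin (Fsk) over vehicle (Ctrl), with its 95% interval for 25 of the 28 tested Kcn rows by subfamily, red for higher with forskolin, blue for lower and grey for not past the threshold; Kcnk10 is drawn as an arrow from its lower bound of 78.7-fold. No voltage-gated gene shown was called higher. The tested inward rectifiers (3 of 15 rows) and tandem pore genes (6 of 14 rows) were all called in 1 direction or the other. Of these, Kcnj15, Kcnk10, Kcnk3 and Kcnk12 passed the filter through the libraries where they were high, so the count describes only members that passed it. Over all tested rows 49.9% were called.

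Promoter windows are shown for the members whose higher level carries the findings below: Kcnj8, the pore gene of the ATP-sensitive channel, Kcne4, the most abundant member, and Kcnk10, which had no count with vehicle. Each is the 250 bases before the start of the deposited transcript, 5′ to 3′ on the gene's strand, from RefSeq on GRCm38.p6 (the build also named mm10). Capitals mark TGACG, the core of the cyclic AMP response element, on either strand, where it reads CGTCA on the other. Kcnj8 lies on the minus strand with its window at chr6:142571615-142571864, Kcne4 on the plus strand at chr1:78816661-78816910, and Kcnk10 on the minus strand at chr12:98578214-98578463.
Kcnj8: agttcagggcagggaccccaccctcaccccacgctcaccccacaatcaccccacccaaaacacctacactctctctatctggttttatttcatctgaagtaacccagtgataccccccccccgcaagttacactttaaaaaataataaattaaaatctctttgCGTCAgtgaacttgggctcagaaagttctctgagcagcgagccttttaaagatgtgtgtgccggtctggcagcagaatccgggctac
Kcne4: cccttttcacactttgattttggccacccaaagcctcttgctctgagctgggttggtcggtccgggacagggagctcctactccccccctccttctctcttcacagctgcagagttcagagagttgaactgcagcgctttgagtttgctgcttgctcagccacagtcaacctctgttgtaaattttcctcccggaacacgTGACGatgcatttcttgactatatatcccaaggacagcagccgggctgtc
Kcnk10: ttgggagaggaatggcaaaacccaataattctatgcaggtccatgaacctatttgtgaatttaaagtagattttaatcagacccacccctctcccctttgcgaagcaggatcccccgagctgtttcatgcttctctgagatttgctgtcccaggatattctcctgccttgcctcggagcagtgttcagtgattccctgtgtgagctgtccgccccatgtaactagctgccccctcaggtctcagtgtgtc
In Kcnj8 the match begins 87 bases before the start and in Kcne4 50 bases before it, and the Kcnk10 window shown holds none. Kcnk10 had 2 windows in RefSeq, and only that at the deposited transcript's start was read for it. Of the 28 tested members 17 had a window that ends at the deposited transcript's start, and 5 of these held TGACG on either strand, among them 3 of 6 members that rose and 2 of 9 that fell. Among 32851 promoter windows of the same length, 17.8% held it. The full element TGACGTCA, which contains the core on both strands, was in 0 of the 17 and in 1.55% of all windows. A match of letters is not a bound site.

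The pore gene of the pericyte ATP-sensitive channel, Kcnj8 (chromosome 6, 142564837 to 142571614, minus strand, mm10), rose 4.64-fold and was the most abundant pore-forming Kcn gene in both groups. It had 100.1, 111 and 125 CPM in the forskolin libraries A, B and C, against 23.8, 24.7 and 23.9 CPM in the vehicle libraries A, B and C. The lowest forskolin library was above 4 times the highest vehicle library, and the vehicle libraries lay within 1 CPM of each other. Its log2 fold change was 2.21 (SE 0.0759, edgeR adjusted p = 8.21e-14). Levels per kilobase of exon, called RPKM here, allow genes to be compared as far as the deposited exon length of each holds. Kcnj8 was at 44.0 ± 4.89 RPKM with forskolin and 9.49 ± 0.179 RPKM with vehicle (SD, n = 3 each).

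The gene of its receptor subunit, Abcc9, which is no Kcn gene but completes the channel, rose 2.21-fold. It had 254, 280.1 and 283 CPM in the forskolin libraries A, B and C, against 111, 130.2 and 128 CPM in the vehicle libraries A, B and C, and the groups did not overlap (log2 fold change 1.15, edgeR adjusted p = 9.51e-12). The level of Kcnj8 per kilobase divided by that of Abcc9 was 1.16, 1.17 and 1.30 in forskolin A, B and C, against 0.630, 0.558 and 0.552 in vehicle A, B and C. The pore gene was thus above the receptor gene in every forskolin library and below it in every vehicle library. The pair are neighbours on chromosome 6, in the same orientation, with 16247 bases between them. The other pair of the family, Kcnj11 and Abcc8, which form the ATP-sensitive channel of pancreatic beta cells, had 0 counts in all 6 libraries.

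**Figure D3:**
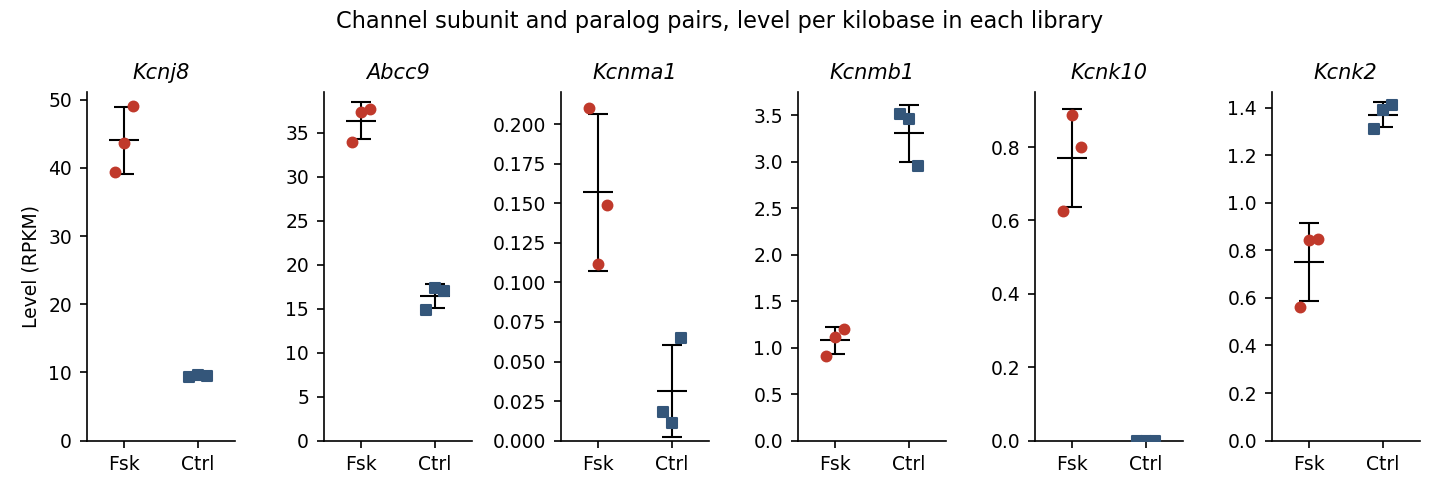
Level per kilobase of exon (RPKM) in each library for 3 pairs of genes, forskolin (Fsk) left of vehicle (Ctrl), with the mean and SD over 3 libraries; each panel has its own axis from 0. Kcnj8 and Abcc9 were higher together, while Kcnma1 and Kcnmb1, pore and auxiliary subunit of one channel, and Kcnk10 and Kcnk2, a pair of close paralogs, differed in opposite directions; Kcnma1 was too low for the main test.

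The other tested inward rectifiers fell. Kcnj15 (chromosome 16, 95257558 to 95300258), which encodes Kir4.2, had 0.638, 0.378 and 0.452 CPM in the forskolin libraries A, B and C, against 3.58, 5.22 and 3.62 CPM in the vehicle libraries A, B and C. It fell 8.25-fold (log2 fold change -3.04, SE 0.325, edgeR adjusted p = 3.51e-07), and its forskolin values rest on 5 to 7 counts a library. Kcnj4, which encodes Kir2.3, had 2.82, 1.70 and 1.93 CPM with forskolin and 3.47, 3.95 and 3.58 CPM with vehicle, without overlap, and fell by 0.79 on the log2 scale (adjusted p = 0.0101). Without forskolin B the call for Kcnj4 was lost (adjusted p = 0.0577). Of the 12 inward rectifiers below the filter, Kcnj2, the gene of the classical rectifier Kir2.1, had 4, 26 and 9 counts in the forskolin libraries and 3, 2 and 5 counts in the vehicle libraries. Most of its counts stood in forskolin B, and the groups overlapped.

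Tandem pore genes, whose channels leak potassium at rest, held the widest range of changes, but through Kcnk10 alone. Without Kcnk10 their log2 fold changes ran from -1.29 for Kcnk6 to 1.72 for Kcnk3. Those of the inward rectifiers ran wider, from -3.04 for Kcnj15 to 2.21 for Kcnj8. Kcnk10 (chromosome 12, 98429437 to 98578213, minus strand), which encodes TREK-2, a channel opened by stretch and fatty acids, was counted in every forskolin library and in no vehicle library. It had 50.5, 86.5 and 71.5 counts in the forskolin libraries and 0, 0 and 0 counts in the vehicle libraries, which is 4.602, 6.54 and 5.88 CPM with forskolin and 0, 0 and 0 CPM with vehicle. Set against 3 counts over the 3 vehicle libraries together, it was at least 78.7-fold higher (edgeR adjusted p = 2.88e-09). That bound takes the forskolin counts as exact, and the 95% counting interval of the ratio of pooled counts begins at 63.3. Its closest paralog Kcnk2, which encodes TREK-1, had 1.96, 2.95 and 2.96 CPM with forskolin and 4.58, 4.86 and 4.92 CPM with vehicle and fell by 0.84 on the log2 scale (adjusted p = 0.00251). Per kilobase, Kcnk10 was at 0.771 ± 0.134 and Kcnk2 at 0.751 ± 0.164 RPKM with forskolin, while Kcnk10 was at 0 and Kcnk2 at 1.37 ± 0.0524 RPKM with vehicle. With forskolin the paralogs were thus at like levels per kilobase, given the deposited lengths of 7354 bases for Kcnk10 and 3493 bases for Kcnk2. In CPM, Kcnk10 averaged 5.67 and Kcnk2 2.62 with forskolin. Which transcripts were used was not measured. When library size was a covariate, Kcnk2 lost its call (adjusted p = 0.130), and 12.2% of its annotated exon bases overlap an antisense transcript, from which its reads cannot be told apart without strand.

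The acid-sensitive channel gene Kcnk3 (TASK-1) had 1.28, 2.04 and 2.42 CPM with forskolin and 0.591, 0.670 and 0.472 CPM with vehicle and rose 3.303-fold (log2 fold change 1.72, SE 0.361, edgeR adjusted p = 0.000641). Kcnk5 (chromosome 14, 20140058 to 20181782), which encodes TASK-2, a channel opened by alkaline pH, was the second most abundant pore gene in both groups. It had 27.7, 31.2 and 35.2 CPM in the forskolin libraries A, B and C, against 17.6, 22.1 and 22.9 CPM in the vehicle libraries A, B and C, and rose 1.51-fold (adjusted p = 0.000143). Its groups did not overlap, but the gap between them was smaller than the range within either group. Kcnk12, which encodes THIK-2, had 1.82, 0.567 and 1.93 CPM with forskolin and 0.369, 0.268 and 0.866 CPM with vehicle, with forskolin B inside the vehicle range. It passed the test (log2 fold change 1.54, adjusted p = 0.0146), but the call was lost without forskolin C (0.0571), without vehicle A (0.0661), without vehicle B (0.0936) and with the library-size covariate (0.792), and without vehicle C the log2 fold change was 2.16 (adjusted p = 0.0087). Kcnk6 (chromosome 7, 29221928 to 29232522), which encodes TWIK-2, had 9.20, 6.50 and 8.51 CPM in the forskolin libraries A, B and C, against 20.04, 20.3 and 18.5 CPM in the vehicle libraries A, B and C, without overlap. It fell 2.44-fold (log2 fold change -1.29, adjusted p = 1.35e-07).

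**Figure D4:**
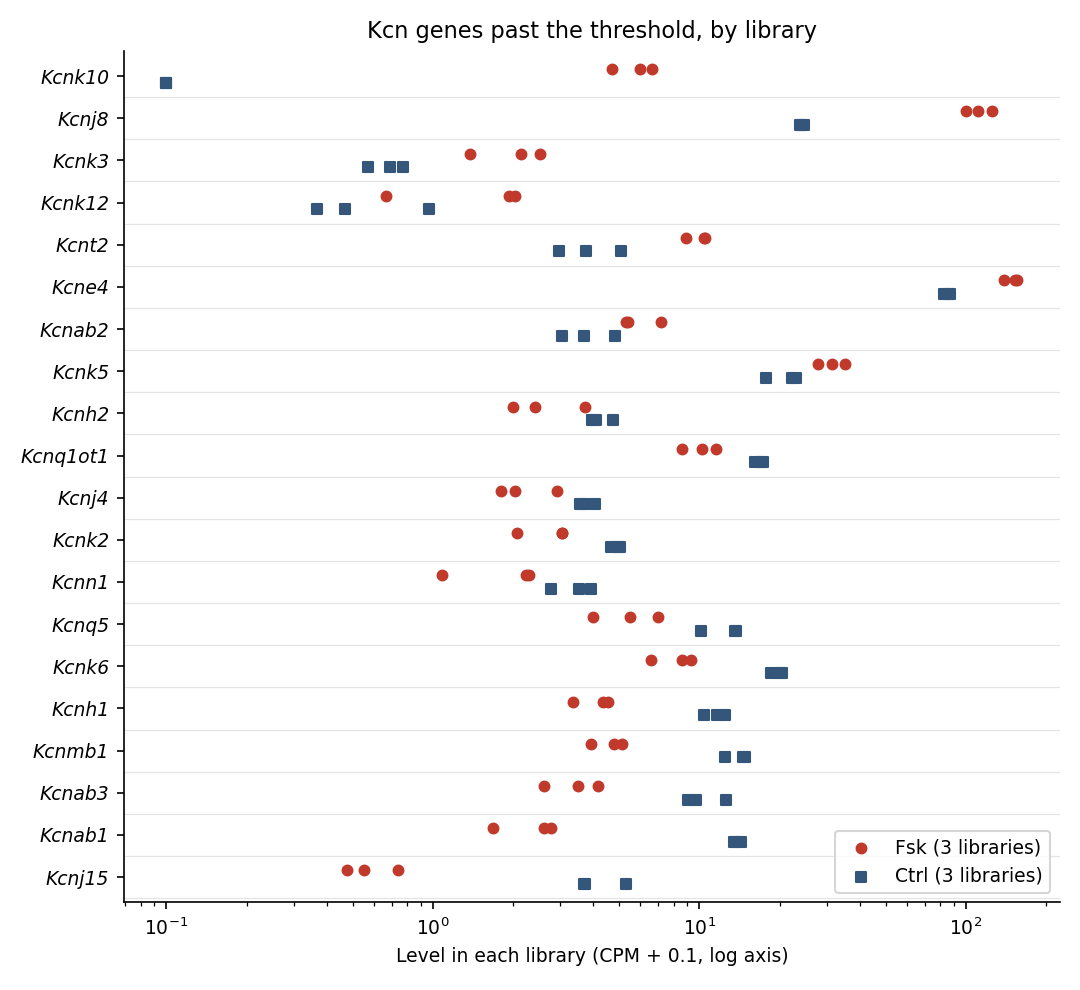
Level in each library (CPM + 0.1, log axis) of 20 of the 21 Kcn rows past the threshold, ordered by fitted log2 fold change, with red points for the 3 forskolin (Fsk) libraries above blue squares for the 3 vehicle (Ctrl) libraries. The groups are apart for all rows shown except Kcnk12, and the 3 vehicle values of Kcnk10 coincide at 0 CPM.

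Among channels opened by calcium or sodium, the large-conductance channel showed opposite differences in its subunits. Kcnmb1 (chromosome 11, 33963013 to 33973638), whose product is the beta 1 subunit that raises calcium sensitivity in smooth muscle, had 3.83, 4.68 and 5.01 CPM in the forskolin libraries A, B and C, against 14.7, 14.5 and 12.4 CPM in the vehicle libraries A, B and C. It fell 3.06-fold (log2 fold change -1.61, SE 0.147, edgeR adjusted p = 4.62e-08). The pore gene Kcnma1 was below the filter, with 14, 9 and 11 counts in the forskolin libraries and 1.5, 1 and 5 counts in the vehicle libraries. The forskolin counts were all above the vehicle counts, and the ratio of pooled counts, forskolin over vehicle, was 4.81 (95% counting interval 2.19 to 12.03). Both subunit genes were low, Kcnmb1 at 1.08 ± 0.146 and Kcnma1 at 0.157 ± 0.0495 RPKM with forskolin, and Kcnmb1 at 3.31 ± 0.307 and Kcnma1 at 0.0313 ± 0.0292 RPKM with vehicle. The fall of Kcnmb1 stands beside the lower smooth muscle markers above, Myh11 among them, with 42.0 ± 6.95 CPM with forskolin and 65.1 ± 1.63 CPM with vehicle, whose part in it was not tested.

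Kcnt2, which encodes the sodium-activated channel Slick, had 10.3, 10.4 and 8.84 CPM with forskolin and 2.88, 3.65 and 4.96 CPM with vehicle, and rose 2.59-fold (log2 fold change 1.37, edgeR adjusted p = 4.9e-06). The groups did not overlap. Kcnn1, which encodes the small-conductance channel SK1, had 2.19, 0.982 and 2.14 CPM with forskolin and 3.80, 2.68 and 3.43 CPM with vehicle and fell by 0.92 on the log2 scale (adjusted p = 0.0116). Its call was lost without forskolin B, its lowest library (adjusted p = 0.0784), and without vehicle A (0.0592), and with the library-size covariate the log2 fold change was -1.57. Kcnu1, which encodes a pH-sensitive channel of sperm, had 1.28 ± 0.182 CPM with forskolin and 1.14 ± 0.208 CPM with vehicle (log2 fold change 0.14, 95% interval -0.53 to 0.82, adjusted p = 0.736).

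Auxiliary subunits included the most abundant Kcn gene of all. Kcne4 (chromosome 1, 78816911 to 78820032, plus strand), a single-span subunit known to inhibit some voltage-gated channels, was at 59.5 ± 3.504 RPKM with forskolin and 34.1 ± 0.966 RPKM with vehicle (SD, n = 3 each), above every pore gene in either group. It had 139, 152 and 156 CPM in the forskolin libraries A, B and C, against 86.5, 86.9 and 82.5 CPM in the vehicle libraries A, B and C. The groups were far apart relative to their spread, and it rose 1.75-fold (log2 fold change 0.80, SE 0.0512, edgeR adjusted p = 3.13e-10). Kcnq1, whose channel KCNE4 inhibits in expression systems, had only 2.5 counts over the forskolin libraries and 9 over the vehicle libraries.

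The beta subunits of Kv1 channels, cytosolic proteins related to aldo-keto reductases, moved apart. Kcnab1 (chromosome 3, 65109014 to 65378225) had 2.51, 1.59 and 2.67 CPM in the forskolin libraries A, B and C, against 14.2, 13.3 and 13.6 CPM in the vehicle libraries A, B and C, and fell 6.12-fold (log2 fold change -2.61, SE 0.175, edgeR adjusted p = 6.34e-10). Kcnab3 had 4.06, 3.40 and 2.51 CPM with forskolin and 9.596, 8.94 and 12.4 CPM with vehicle, and fell 3.14-fold (adjusted p = 1e-06). Neither overlapped between groups, and for Kcnab1 every vehicle library was above 4 times every forskolin library. Kcnab2 had 5.19, 5.29 and 7.07 CPM with forskolin and 3.58, 2.95 and 4.72 CPM with vehicle and rose 1.58-fold (adjusted p = 0.0128), a call lost without forskolin C (0.0637), without vehicle B (0.0853) and with the library-size covariate (0.326). Of the 8 Kv1 pore genes themselves (Kcna1 to Kcna7 and Kcna10), with which these subunits assemble, none was tested, and the most counted, Kcna7, had 17 counts over the forskolin libraries and 33.5 over the vehicle libraries. Kcnip3, which encodes the calcium-binding protein DREAM, was at 11.6 ± 1.64 CPM with forskolin and 9.97 ± 0.444 CPM with vehicle (log2 fold change 0.21, 95% interval -0.062 to 0.49, adjusted p = 0.187).

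Voltage-gated pore genes were all low, with Kcnq5 at 0.710 ± 0.200 and Kcnh1 at 0.549 ± 0.0872 RPKM with forskolin, and Kcnq5 at 1.63 ± 0.265 and Kcnh1 at 1.58 ± 0.143 RPKM with vehicle. Kcnh1, which encodes the ether-a-go-go channel Eag1, had 4.42, 4.23 and 3.25 CPM in the forskolin libraries A, B and C, against 11.6, 10.3 and 12.4 CPM in the vehicle libraries A, B and C. The groups were well apart, and it fell 2.87-fold (log2 fold change -1.52, edgeR adjusted p = 2.54e-07). Kcnq5, which encodes Kv7.5, a channel of the M-current that also acts in vascular smooth muscle, had 3.87, 6.91 and 5.38 CPM with forskolin and 10.1, 13.5 and 13.6 CPM with vehicle, and fell 2.26-fold (adjusted p = 2.96e-05). Kcnh2, which encodes the ERG channel of the heart, had 2.32, 3.63 and 1.89 CPM with forskolin and 3.84, 3.99 and 4.65 CPM with vehicle. It passed narrowly (log2 fold change -0.65, adjusted p = 0.0309), and the call was lost in 7 of 13 alternatives, among them DESeq2 (adjusted p = 0.0661) and leaving out forskolin A (0.0647), forskolin C (0.129), vehicle A (0.0507), vehicle B (0.0688) or vehicle C (0.113).

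Of the 5 tested voltage-gated genes that did not pass, 3 are given, and their intervals leave room for differences either way. Kcnd1 (Kv4.1) was at 3.46 ± 0.973 CPM with forskolin and 4.41 ± 0.5996 CPM with vehicle, with an interval of -0.81 to 0.12, and without forskolin C, its highest forskolin library, it passed as lower (log2 fold change -0.60, adjusted p = 0.0367). Kcng2 and Kcns3, whose products form no channel alone but modify other voltage-gated channels, had intervals of -1.004 to 0.25 and -1.18 to 0.51.

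Kcnq1ot1, the long noncoding RNA read antisense to Kcnq1 and known for silencing its imprinted neighbourhood, was kept apart from the channel genes. It had 11.5, 10.1 and 8.51 CPM with forskolin and 16.9, 16.0 and 17.3 CPM with vehicle, without overlap, and fell by 0.74 on the log2 scale (edgeR adjusted p = 5.57e-05).

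The 70 members below the filter held at most 59 counts over the 6 libraries. Of these, 15 had no count at all, among them Kcna4, Kcnb2, Kcnc1, Kcnh6, Kcnh8, Kcnj1, Kcnj11, Kcnj16, Kcnk1, Kcnk9, Kcnk15, Kcnk16, Kcnk18 and Kcns2. With 3 counts as the limit that a count of 0 allows, a gene at 0 in all vehicle libraries could still stand at up to 0.0729 CPM there. A further 29 had fewer than 10 counts in all. The other 26 were Kcnj2, Kcnj5, Kcnj10, Kcnj12, Kcnj13 and Kcnj14 among inward rectifiers, Kcnk13 among tandem pore genes, Kcnma1, Kcnmb2, Kcnmb4, Kcnn2, Kcnn3 and Kcnn4 among calcium-activated channel genes, Kcne1, Kcnip4 and Kcnrg among auxiliary genes, and Kcna1, Kcna6, Kcna7, Kcnc2, Kcnd3, Kcng1, Kcng4, Kcnh3, Kcnh5 and Kcnq1 among voltage-gated genes. In the fit without a filter, an alternative, 10 of 82 members passed as higher and 16 as lower. Of 18899 rows 18% passed as higher and 18.6% as lower, and both sets include the rows above the filter. Among the 70 members below the filter 5 passed: Kcnj2 and Kcnma1 as higher, and Kcnd3, Kcng4 and Kcnj12 as lower. Most forskolin counts of Kcnj2 stood in forskolin B. The share among all rows below the filter was not computed, so the 5 cannot be set against a like share. The edgeR fit without a filter gave Kcnj8 an adjusted p of 1.54e-228, against 8.21e-14 in the main fit, so its threshold is not alike. Kcnd3, which encodes Kv4.3, had 2, 2 and 2 counts in the forskolin libraries and 7, 10 and 13 counts in the vehicle libraries, a ratio of pooled counts, vehicle over forskolin, of 4.42 (95% counting interval 1.81 to 12.98). Kcnj12, which encodes Kir2.2, had 0, 0 and 3 counts in the forskolin libraries and 3, 8 and 10 counts in the vehicle libraries, and Kcng4 had 0, 0 and 0 counts in the forskolin libraries and 3.5, 7 and 3 counts in the vehicle libraries. Kcng4 was at least 3.98-fold lower against 3 counts over the forskolin libraries together. That bound takes the vehicle counts as exact, and the 95% counting interval of the ratio of pooled counts, vehicle over forskolin, begins at 2.93. The intervals cover counting error only.

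Summed per kilobase over 77 genes taken by name as pore-forming, the level was 64.6, 68.9 and 77.8 RPKM in forskolin A, B and C, against 35.9, 39.5 and 39.4 RPKM in vehicle A, B and C. The 77 include genes such as Kcng2 and Kcns3, whose products form no channel alone. Without Kcnj8 the sum was 26.4 ± 1.98 RPKM with forskolin and 28.8 ± 1.93 RPKM with vehicle (SD, n = 3 each), so the higher total lay in Kcnj8. Kcnj8 held 62.4 ± 1.26% of the sum with forskolin and 24.8 ± 1.11% with vehicle, and Kcnk5 held 13.3 ± 0.41% with forskolin and 16.2 ± 1.41% with vehicle. Kcnk6 held 2.82 ± 0.605% of the sum with forskolin and 12.6 ± 1.09% with vehicle, and Kcnj4 1.45 ± 0.511% with forskolin and 4.46 ± 0.214% with vehicle. Kcnt2 was number 3 in order of level among the pore genes with forskolin and number 12 with vehicle. A transcript level is no measure of current.

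**Figure D5:**
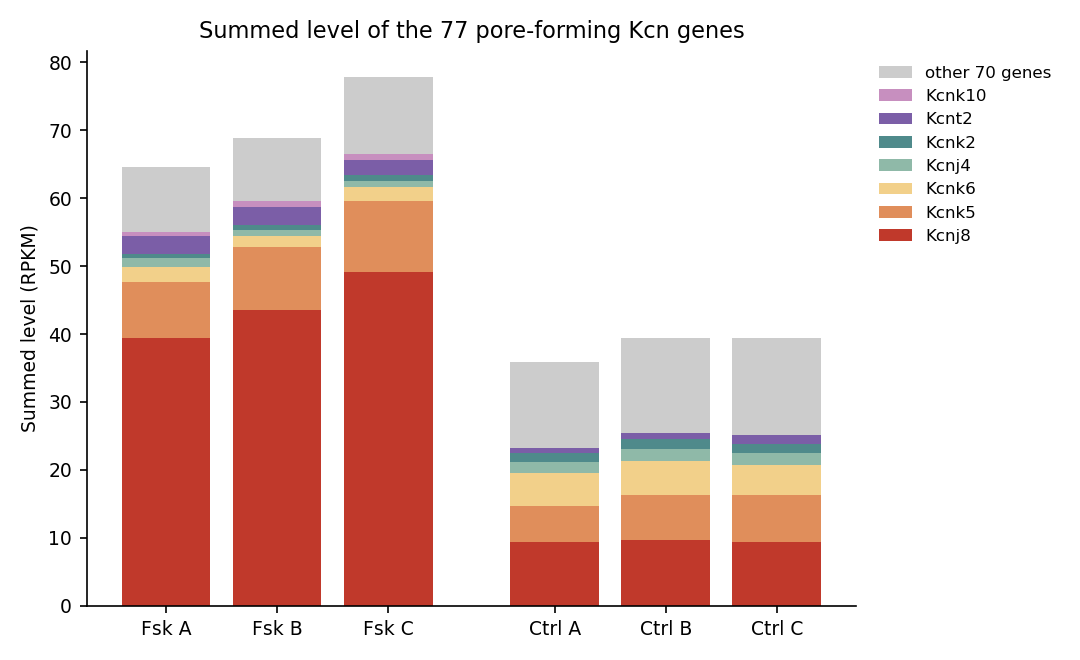
Level per kilobase (RPKM) summed over the 77 Kcn genes taken by name as pore-forming, in each library, forskolin (Fsk) left of vehicle (Ctrl), with 7 genes shown apart and the other 70 together in grey. The bars reach 64.6 to 77.8 RPKM with forskolin and 35.9 to 39.5 RPKM with vehicle. The Kcnj8 segment is higher with forskolin, and the other segments together are at 26.4 ± 1.98 RPKM with forskolin and 28.8 ± 1.93 RPKM with vehicle.

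A list of 40 partner and ion-transport genes was read beside the channels, with the volume-regulated anion channel genes Lrrc8a to Lrrc8e among them. Of these 40 genes 24 were tested, 4 rose and 11 fell, 62.5% against 49.9% over all tested rows. By direction, 16.7% rose and 45.8% fell, against 24.8% and 25.1% over all tested rows. The list's median log2 fold change was -0.14. Besides Abcc9, the genes that rose were Amigo1, whose product accompanies voltage-gated channels (1.43-fold, edgeR adjusted p = 0.000109), the lysosomal potassium channel gene Tmem175 (1.36-fold, adjusted p = 0.000202) and Lrrc8e (2.06-fold, adjusted p = 0.0083), the last with 2.64, 2.27 and 2.67 CPM with forskolin and 1.48, 1.47 and 0.630 CPM with vehicle and no call once library size was a covariate (0.0698).

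The largest fall among the 24 tested genes of the list was that of Atp1b1, which encodes the beta 1 subunit of the sodium-potassium pump that builds the potassium gradient. It had 16.9, 14.3 and 16.4 CPM in the forskolin libraries A, B and C, against 101, 97.2 and 87.8 CPM in the vehicle libraries A, B and C, without overlap, and fell 6.01-fold (edgeR adjusted p = 1.59e-14), with 18.7% of its annotated exon bases shared with Nme7 on the opposite strand. The beta 3 gene Atp1b3 was at 240.2 ± 6.11 CPM with forskolin and 262 ± 8.71 CPM with vehicle and passed (log2 fold change -0.13, adjusted p = 0.0177), a call that ended with library size alone as the scaling (0.0853) and without forskolin B (0.08), vehicle A (0.0898) or vehicle C (0.0767). Slc12a2, which encodes the cotransporter NKCC1 that brings potassium in with sodium and chloride, had 64.4, 62.3 and 62.1 CPM with forskolin and 135, 136 and 134 CPM with vehicle and fell 2.15-fold (adjusted p = 1.16e-12). The potassium-chloride cotransporter genes Slc12a4 and Slc12a7 also fell, by 0.22 and 0.55 on the log2 scale. Tmem38a and Tmem38b, whose products are intracellular potassium channels that balance calcium release, fell by 0.42 and 0.17, and the pump regulators Fxyd5 and Fxyd1 by 0.15 and 0.80, Fxyd1 at an adjusted p of 0.0493. Not all of these calls held. With the library-size covariate Tmem38a (0.0641), Tmem38b (0.5196) and Fxyd1 (0.263) lost theirs, with library size alone Tmem38b (0.125), Fxyd5 (0.0728) and Fxyd1 (0.0607), and with DESeq2 Tmem38b (0.0706) and Fxyd1 (0.161). Tmem38b also lost its call without forskolin A (0.121) or B (0.124) and without vehicle A (0.125) or B (0.1303). Fxyd5 lost it without forskolin B (0.128), vehicle A (0.0642) or vehicle C (0.0699), and Fxyd1 without any single library other than forskolin B (0.0824 to 0.173). Among the volume-regulated anion channel genes, Lrrc8c had 34.8, 31.2 and 37.3 CPM with forskolin and 70.4, 74.7 and 72.8 CPM with vehicle and fell 2.11-fold (adjusted p = 2.61e-10), while the obligate subunit gene Lrrc8a was at 127 ± 7.07 CPM with forskolin and 125 ± 2.60 CPM with vehicle (adjusted p = 0.81). The cyclic nucleotide-gated pacemaker genes were low or absent, with Hcn2 at 5.26 ± 1.24 CPM with forskolin and 5.48 ± 0.246 CPM with vehicle (adjusted p = 0.853) and Hcn4 at 0 counts.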

How the data were processed

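Polyadenylated RNA of 6 libraries was used, 3 per group. The authors deposited 1 table of estimated counts per gene, not normalized, with 1 RefSeq transcript and its exon length per symbol, and the submitters' processing notes name STAR, HOMER and the build mm10, with no version. The deposited counts come in steps of 0.5, 31.8% of them not whole, and were rounded to whole numbers (values midway to the even number) for tests and left as deposited for levels. Whether strand was kept is not stated. filterByExpr, at a minimum count of 10 and a total of 15, left 13357 rows, which were TMM-scaled. Forskolin was compared with vehicle in edgeR 4.0.16 (R 4.3.3) by the quasi-likelihood test, two-sided, with Benjamini-Hochberg adjustment over all tested rows and 0.05 as the threshold. The common biological variation coefficient was 4.44%. The SE and 95% interval of a log2 fold change come from the F statistic. CPM, counts scaled to a common library total, were computed on TMM-scaled library sizes, and RPKM as CPM per kilobase of the deposited exon length. Pooled-count intervals are exact (Clopper-Pearson). The fit was tested on simulated counts. Alternatives were other scalings, DESeq2 1.42.0, no filter, a replicate block, a depth covariate, each library left out and, added after seeing the data, midway values rounded up. The members, gene lists and marker lists were chosen with earlier results of these data known. Members past the threshold with at least 1 CPM in either group are given by library, other tested members by values or ranges, and members below the filter by name from 10 counts. Some members and partner genes are counted but not reported here by name. Other genes named, and the members below the filter singled out, were chosen after their values were seen. Overlaps and shared stretches were read from GENCODE M21, and at least 87.6% of the 50-base stretches of each tested member were found in no other gene.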

Additional observations from a re-analysis of the deposited data

How the results depend on the processing

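Over 13 alternatives, 6 to 10 Kcn rows were higher and 11 to 16 lower with forskolin, against 8 and 13 as reported, and every count stayed within 1.5 times the reported one, while 15% to 29.9% of all rows tested were higher and 17.2% to 25.5% lower. With each library left out in turn they were 6 to 9 higher and 11 to 13 lower. Of the 21 called members 15 kept their call in all 13 alternatives, and the 6 that lost it in at least 1 were Kcnh2, Kcnk12, Kcnab2, Kcnn1, Kcnj4 and Kcnk2, none of which changed sign. The sign turned in 3 values of members that had not passed, among them Kcnu1 with library size as a covariate (-0.067) and Kcns3 without forskolin B (0.060, range over libraries left out -0.74 to 0.060). Among the partner genes it turned for Hcn2 (0.28 with the covariate, 0.13 without forskolin A, range -0.15 to 0.13), Hcn3 (0.12 with the covariate), Lrrc8a (-0.033 without forskolin B, range -0.033 to 0.043) and Lingo1 (-0.025 without forskolin C, range -0.025 to 0.17). The cause of these turns was not tested. With the replicate block, 8 members were higher and 13 lower, and the log2 fold change of Kcnd1 was -0.36, while the partner gene Fxyd1 lost its call (adjusted p = 0.0659). Libraries of the same letter correlated in their deviations from the group means by 0.033, 0.0257 and 0.0343, under the 0.1 asked of pairs, although each library correlated best with its own letter, so the letters were not taken as pairs. At these depths 70 of the 98 members were too low to test.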

Other observations

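Around Kcnj8 and Abcc9 on chromosome 6, chosen for a look after their values were seen, the next tested genes on either side did not pass. Ldhb was at 16.9 CPM with forskolin and 17.4 CPM with vehicle (edgeR adjusted p = 0.758), and Cmas at 65.5 CPM with forskolin and 60.03 CPM with vehicle (adjusted p = 0.0752). The transcript 5330439B14Rik, antisense to Abcc9 and sharing 158 of its exon bases, was at 7.28 CPM with forskolin and 3.29 CPM with vehicle (log2 fold change 1.14, adjusted p = 2.06e-05), and without strand its reads cannot be told apart from those of Abcc9 where they overlap.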
